A study of Mus musculus with 3 samples.

Results

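Myelo-4 is a cluster of 59 cells, of 11132 cells in all, in a bone marrow experiment on wild-type C57BL/6 mice. Its members are the cells that carry exactly this cluster name in the authors' deposited cell list, 31 of them in the female and 28 in the male mRNA library. The share was 0.715% in the female library (exact binomial 95% interval 0.486% to 1.01%) and 0.412% in the male library (0.274% to 0.595%), and intervals here cover counting error only. The series used CITE-seq, in which the transcripts of a cell and DNA tags on antibodies bound to its surface are counted together, with antibodies to Ly-6G, CD11b, Ly-6C and CD117. Marrow of hindlimbs was enriched with CD117 beads, stained and sorted, and the labels call the cells modified GMP, where GMP usually stands for granulocyte-monocyte progenitor. No group was treated or carried a mutation, the labels give neither age nor the number of mice, and each sex was 1 mRNA library, so the 2 libraries served as replicates (n = 2). Myelo-4 was set mainly against Myelo-3 (426 female and 529 male cells), the next cluster by name.

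Neutrophils mature in the marrow through stages that are told apart by their granules. Azurophil (primary) granule proteins are made first, specific (secondary) granule proteins next and gelatinase granule proteins last, and cell division ends before the last step. Mmp8, neutrophil collagenase, Mmp9, which is gelatinase B, and Retnlg, a secreted resistin-like protein, are known as late transcripts of this sequence. Ly6g encodes the surface antigen Ly-6G, by which mouse neutrophils are recognised.

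The 3 marker genes that name these cells were each highest in Myelo-4 among the 17 clusters, in both libraries. Clusters may have been made from any transcript of these cells, so every RNA difference between clusters is given here as a description, without a test. Levels are CPM, the UMIs (molecules counted once) of a gene scaled to the total of its cluster and library and by TMM factors. Mmp8 stood at 1590 CPM (female) and 1525 CPM (male) in Myelo-4, from 214 and 174 UMIs, against 40.3 CPM and 36.5 CPM in Myelo-3. Retnlg stood at 5185 CPM and 5792 CPM in Myelo-4, against 278 CPM and 207 CPM in Myelo-3. Ly6g stood at 2600 CPM and 2191 CPM in Myelo-4, against 727 CPM and 531 CPM in Myelo-3. Myelo-3 was the next highest cluster for each of them, and the values of the 2 libraries did not overlap between Myelo-4 and Myelo-3. In the assembly GRCm38.p6, Mmp8 lies on chromosome 9 (7558429 to 7568486), Retnlg on chromosome 16 (48872608 to 48874498) and Ly6g on chromosome 15 (75155261 to 75159128).

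**Figure D1:**
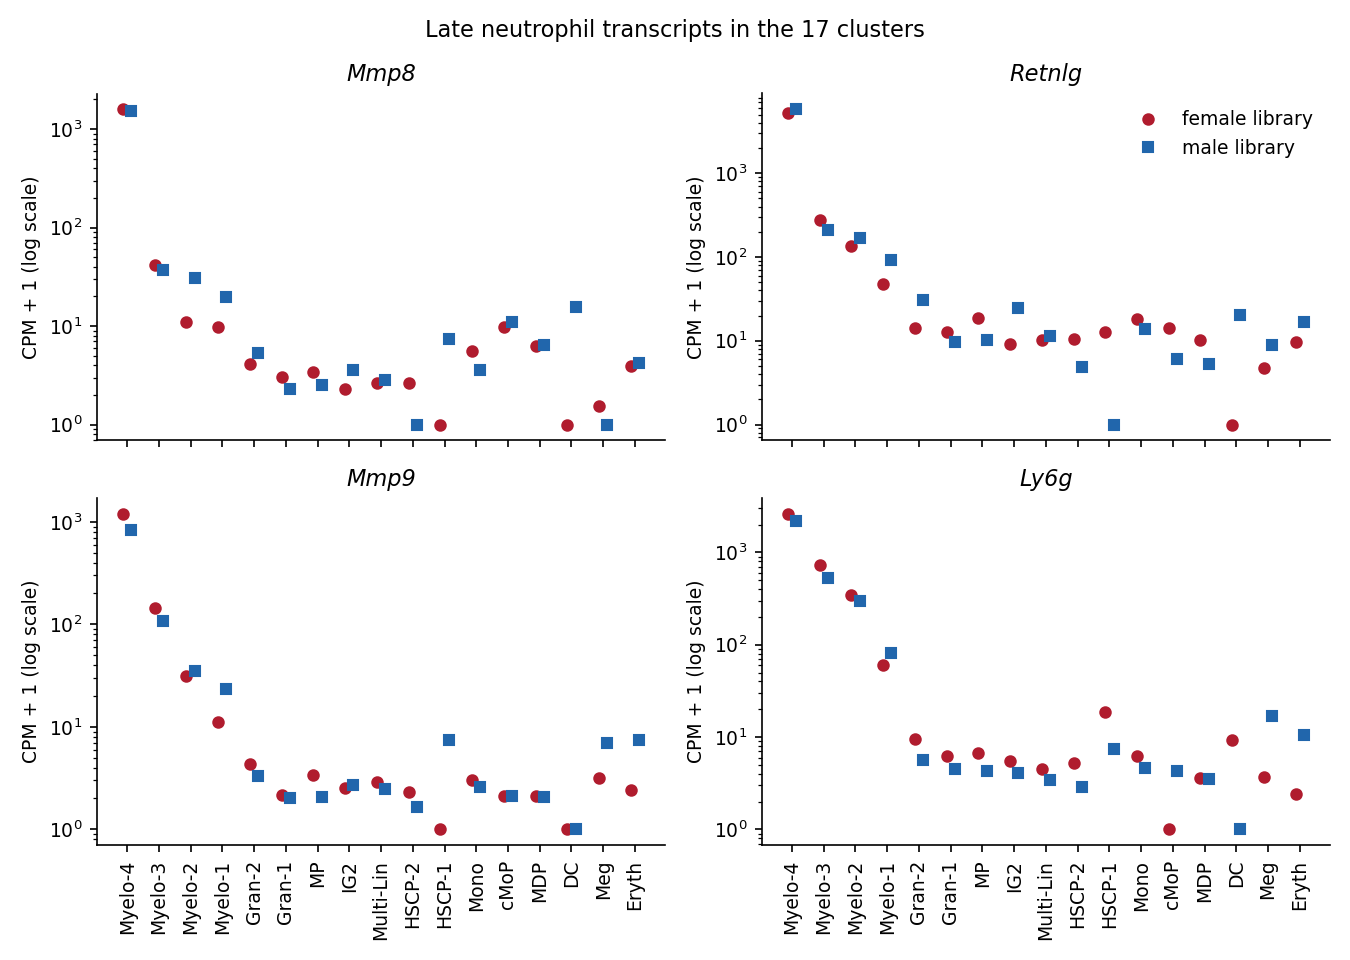
Level (CPM + 1, log scale) of Mmp8, Retnlg, Mmp9 and Ly6g in each of the 17 clusters, with 1 point per library (circles female, squares male). All 4 transcripts are highest in Myelo-4 in both libraries, for Mmp8 at 1590 CPM and 1525 CPM against 40.3 CPM and 36.5 CPM in Myelo-3.

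Each cell was thinned to 4000 UMIs, so that single cells were compared at equal depth. Mmp8 then had at least 1 UMI in 27 of 31 female Myelo-4 cells (87.1%, exact binomial 95% interval 70.2% to 96.4%) and in 23 of 28 male ones (82.1%, 63.1% to 93.9%). In Myelo-3 the shares were 5.40% (3.45% to 7.99%) and 6.43% (4.49% to 8.86%). In erythroid cells (the cluster Eryth), which should lack the gene, 2 of 41 female cells (4.88%, 0.596% to 16.5%) and 1 of 43 male cells (2.33%, 0.0589% to 12.3%) had a UMI. The Eryth intervals are wide because the cells are few. In Gran-1, with more cells, the shares were 0.962% (0.416% to 1.89%) and 0.519% (0.224% to 1.02%). The Myelo-4 shares lay far above both, and the Myelo-3 shares lay above those of Gran-1 but within the Eryth intervals. Before thinning, the shares were 87.1% and 85.7% in Myelo-4 and 7.75% and 8.32% in Myelo-3. Median depths before thinning were 5844 and 5057 UMIs in Myelo-4, 9531 and 8770 UMIs in Myelo-3, and 12993 and 10904 UMIs in Eryth.

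Promoter sequences are shown for the first 2 genes called higher and the first 3 called lower, by the ranking given below, with an entry in the RefSeq promoter table (GRCm38.p6). Nusap1 binds spindle microtubules, Cdca3 promotes entry into mitosis and Ube2c helps to degrade cyclins. Each is the 250 bases before the start of the gene used there, on the plus strand, 5′ to 3′. Capitals mark CCAAT (the box bound by NF-Y), TTTGAA (the core of the cell cycle homology region) and TTGCNNAA (a core of C/EBP sites), searched on both strands. Windows are chr9:7558179-7558428 for Mmp8, chr16:48872358-48872607 for Retnlg, chr2:119618048-119618297 for Nusap1, chr6:124829926-124830175 for Cdca3 and chr2:164769679-164769928 for Ube2c. The Cdca3 window lies inside the span annotated for that gene.
Mmp8: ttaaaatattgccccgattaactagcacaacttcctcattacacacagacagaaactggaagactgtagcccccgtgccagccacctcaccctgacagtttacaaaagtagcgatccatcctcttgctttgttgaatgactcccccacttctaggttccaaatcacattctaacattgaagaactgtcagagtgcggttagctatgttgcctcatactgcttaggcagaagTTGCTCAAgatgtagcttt
Retnlg: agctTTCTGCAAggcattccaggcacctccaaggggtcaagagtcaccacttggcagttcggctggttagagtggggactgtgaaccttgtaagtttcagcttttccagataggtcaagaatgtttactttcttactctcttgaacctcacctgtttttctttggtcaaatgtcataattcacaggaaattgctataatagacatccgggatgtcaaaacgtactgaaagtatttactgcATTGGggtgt
Nusap1: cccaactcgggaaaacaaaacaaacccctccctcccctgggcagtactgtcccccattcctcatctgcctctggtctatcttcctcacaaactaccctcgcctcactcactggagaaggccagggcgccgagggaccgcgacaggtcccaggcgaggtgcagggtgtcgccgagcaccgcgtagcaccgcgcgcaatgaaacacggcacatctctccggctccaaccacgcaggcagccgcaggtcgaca
Cdca3: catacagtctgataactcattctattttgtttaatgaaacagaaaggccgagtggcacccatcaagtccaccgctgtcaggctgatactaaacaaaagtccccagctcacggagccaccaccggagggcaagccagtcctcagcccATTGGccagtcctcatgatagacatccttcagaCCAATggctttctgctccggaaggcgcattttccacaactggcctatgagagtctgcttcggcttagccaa
Ube2c: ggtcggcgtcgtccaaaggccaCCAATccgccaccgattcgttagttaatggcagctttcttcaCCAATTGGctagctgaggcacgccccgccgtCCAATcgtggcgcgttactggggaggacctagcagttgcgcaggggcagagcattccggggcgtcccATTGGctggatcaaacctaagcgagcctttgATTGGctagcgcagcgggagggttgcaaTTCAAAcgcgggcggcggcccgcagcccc
Mmp8 and Retnlg each held 1 match to TTGCNNAA, and Retnlg also 1 to CCAAT. Ube2c held 6 matches to CCAAT, of which a pair overlap on opposite strands, and 1 to TTTGAA, while Cdca3 held 2 to CCAAT and Nusap1 held none of the 3 motifs. Of 27025 genes with such a window, 37.5% held CCAAT, 18.3% held TTTGAA and 10.8% held TTGCNNAA. Among the 25 listed G2/M genes with a window, 20 held CCAAT and 10 held TTTGAA. Among 20 listed secondary granule genes with a window, 7 held TTGCNNAA, against 2 of 11 in the gelatinase granule list. A match is a description of the letters and was not tested as a binding site.

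Myelo-4 cells were shallow, 1 of them stood apart, and 1 other had a barcode that occurred in both libraries. The median of 5844 UMIs in the female and 5057 UMIs in the male library lay close to the lowest count of any cell in the table, 4373 UMIs. Cells under 5000 UMIs were 15 of 59 in Myelo-4 (25.4%), against 4.92% in Myelo-3 and 1.23% of all cells. Summed, the Myelo-4 cells gave 191478 UMIs (female) and 155909 UMIs (male), so that 3 UMIs correspond to 22.3 CPM and 26.3 CPM. The mitochondrial share of UMIs, a sign of RNA quality, was 0.886% (female) and 1.78% (male) in Myelo-4, against 1.03% and 1.37% in Myelo-3. Myelo-4 was thus below Myelo-3 in the female and above it in the male library, and the part of this in other results was not tested. Across the libraries, 45 cell barcodes occurred in both, and in all 45 cases the 2 cells were listed with the same 4 antibody counts. Of these, 1 cell was a male Myelo-4 cell, whose partner was a female cell of another cluster, and 8 were Myelo-3 cells.

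A single male Myelo-4 cell stood apart from the other 58. Of 4000 UMIs, it gave 512 to 28 listed ribosomal protein genes, against 58 to 136 in the other Myelo-4 cells, and 68 to secondary granule genes, against 393 to 796. It held 5 UMIs of Cd34 and 5 of Sox4, markers of stem and progenitor cells, where all other Myelo-4 cells together held 8 and 3. It also held 143 of the 661 Retnlg UMIs of male Myelo-4 cells. Mmp8 gave 6 UMIs in it, Ly6g 0 and Ltf 2, and its CD117 count of 249 was the second highest among Myelo-4 cells. Of the 68 named genes that met the 2-fold rule below, all 68 still met it without this cell, and all 68 met it without the cells whose barcode occurred in both libraries.

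Against Myelo-3, far more genes were lower in Myelo-4 than higher. A gene was called when it differed at least 2-fold in the same direction in both libraries, among 4041 genes with a mean level of at least 20 CPM over the 4 sums. Of these, 90 were higher (2.23%) and 473 lower (11.7%). Among the 1123 genes with a mean of at least 100 CPM, 24 were higher (2.14%) and 105 lower (9.35%), and 80.9% of the 1123 had the same sign in both libraries. The split moved with the scaling, to 98 higher and 237 lower with plain CPM and to 125 higher and 209 lower with DESeq2 size factors. The median gene of the 4041 stood at -0.40 (log2, Myelo-4 over Myelo-3) with TMM, at -0.23 with plain CPM and at -0.14 with DESeq2 size factors, so list medians are read beside -0.40.

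**Figure D2:**
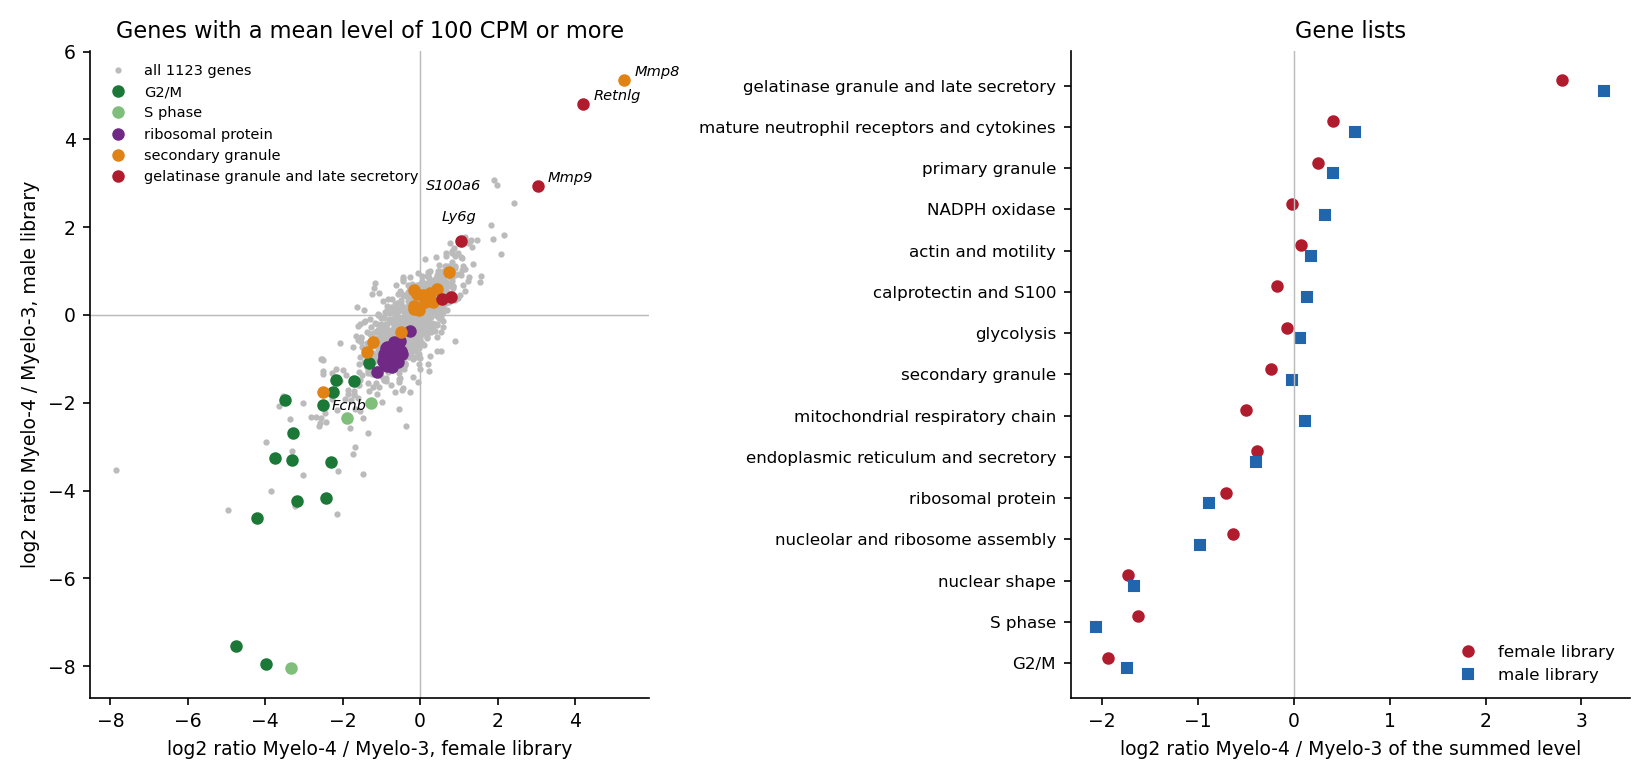
Left, log2 ratio of Myelo-4 over Myelo-3 in the female library (horizontal axis) and the male library (vertical axis) for the 1123 genes with a mean level of at least 100 CPM, with members of 5 gene lists in colour. Right, log2 ratio of the summed level of 15 lists in each library. Late secreted genes lie far to the upper right and cell cycle genes to the lower left. Secondary granule, actin and glycolysis sums lie near 0, and the primary granule sum at 0.25 and 0.41.

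Late granule and secretory genes were the leading group on the high side. The list of gelatinase granule and late secretory genes had 15 members, 9 of them above 20 CPM, and 5 of these were called higher (against 2.23% of all genes) and 0 lower. Among the 5, Retnlg is a marker that names these cells, so its call adds no evidence. Fpr1, at 4.35 CPM and 3.68 CPM in Myelo-3, passed the 20 CPM mean only through Myelo-4, which all but fixes a call as higher. At 100 CPM or more, 3 of 5 members were called higher, against 2.14% of all genes. These were Mmp9, Fpr2 and again the marker Retnlg, whose call adds no evidence. The list had a median log2 ratio of 1.36. Its summed level was 7525 CPM and 7641 CPM in Myelo-4, against 1079 CPM and 809 CPM in Myelo-3. Most of that sum is Retnlg, and the mean log2 ratio of the sum was 1.58 without it and 3.02 with it. Mmp9 stood at 1189 CPM and 832 CPM in Myelo-4, against 144 CPM and 107 CPM in Myelo-3, a mean log2 ratio of 2.99 ± 0.06 (SD, n = 2). Fpr2, a formyl peptide receptor that senses bacterial products, stood at 461 CPM and 377 CPM in Myelo-4, against 223 CPM and 117 CPM in Myelo-3, though it missed the 2-fold rule when cells were thinned and when the deepest cells were left out. Fpr1, a receptor of the same kind, rested on 4 and 10 UMIs in Myelo-4, and Adam8, a membrane protease, on 6 and 5. Before thinning, only 21 of 426 female and 20 of 529 male Myelo-3 cells had an Adam8 UMI. Adam8 thus passed the 20 CPM mean through Myelo-4 too. Mmp9 and Fpr2 are the called members that neither name these cells nor passed in this way. Itgam, which encodes CD11b, and Ptprc, which encodes CD45, belong to the list and missed the rule, at log2 ratios of 0.58 and 0.37 for Itgam and 0.79 and 0.42 for Ptprc. Alpl, a phosphatase of the latest granule membranes, gave 0 UMIs in Myelo-4.

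Genes with known roles at the surface of mature neutrophils had smaller ratios. The list of receptors and cytokines had 24 members above 20 CPM, of which 6 were called higher (against 2.23% of all genes) and 0 lower, with a median log2 ratio of 0.86. Pilra, an inhibitory receptor of myeloid cells, stood at 357 CPM and 359 CPM in Myelo-4, against 139 CPM and 121 CPM in Myelo-3, and it missed the rule without the deepest cells. Pirb, another inhibitory receptor, stood at 394 CPM and 412 CPM in Myelo-4, against 190 CPM and 165 CPM in Myelo-3. C5ar1, the receptor for complement C5a, averaged 273 ± 76.2 CPM in Myelo-4 and 130 ± 32.5 CPM in Myelo-3 (SD, n = 2 each). The other called members, Clec4e, Fcgr4 and Cxcl2, rested on 6 to 17 UMIs in each library. Cxcl2, at 13.1 CPM and 11.6 CPM in Myelo-3, passed the 20 CPM mean only through Myelo-4. At 100 CPM or more, 3 of 15 members of this list were called higher, against 2.14% of all genes. Cxcr2, the chemokine receptor by which neutrophils leave the marrow, rested on 6 and 7 UMIs and was not called, at 44.6 CPM and 61.3 CPM in Myelo-4 against 30.1 CPM and 22.3 CPM in Myelo-3. Il1b, an inflammatory cytokine abundant in activated neutrophils, and Cxcr1 gave 0 UMIs in Myelo-4. A count of 0 UMIs allows up to 22.3 CPM (female) and 26.3 CPM (male) at this depth.

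Over all genes with a mean of at least 100 CPM, the 15 called higher with the largest ratio in the library where it was smaller were Mmp8, Retnlg, Mmp9, Ceacam10, S100a6, Slc7a11, Ly6g, Grina, Prr13, Sh3glb1, Pilra, Lgals3, Ltb, Ypel3 and 1 identifier without a symbol in the tables used. Mmp8, Retnlg and Ly6g are the markers that name these cells, so their places add no evidence. Mmp8, Ceacam10 and Slc7a11, for example, passed the 100 CPM mean only through Myelo-4, which all but fixes a call as higher. S100a6, a calcium-binding protein, stood at 3224 CPM and 3759 CPM in Myelo-4, against 811 CPM and 486 CPM in Myelo-3. Slc7a11, the cystine transporter, stood at 238 CPM and 377 CPM in Myelo-4, against 62.5 CPM and 44.1 CPM in Myelo-3. Ceacam10, a secreted member of the carcinoembryonic antigen family, stood at 297 CPM and 280 CPM in Myelo-4, against 54.2 CPM and 46.9 CPM in Myelo-3. Lgals3, galectin-3, abundant in macrophages too, stood at 1902 CPM and 1665 CPM in Myelo-4, against 758 CPM and 508 CPM in Myelo-3. By mean level, Myelo-3 was the next highest cluster for 11 of these 15 genes, DC for Lgals3 and Sh3glb1, HSCP-1 for Ltb and HSCP-2 for Ypel3.

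Secondary and primary granule genes were called at shares near that of all genes, of which 13.9% were called either way. Of 20 secondary granule genes above 20 CPM, Mmp8 was the 1 called higher and 2 were lower (against 2.23% and 11.7% of all genes), with a list median of 0.20. Mmp8 is a marker that names these cells, so its call adds no evidence. Ltf, lactoferrin, stood at 12509 CPM and 11891 CPM in Myelo-4, against 9276 CPM and 7875 CPM in Myelo-3. Camp, the cathelicidin precursor, stood at 77069 CPM and 67682 CPM in Myelo-4, against 108955 CPM and 88780 CPM in Myelo-3. Chil3, a chitinase-like protein, stood at 4100 CPM and 5722 CPM in Myelo-4, against 9500 CPM and 8787 CPM in Myelo-3, log2 ratios of -1.21 and -0.62, and was not called. Fcnb, ficolin-B, a lectin, was called lower, at 149 CPM and 245 CPM in Myelo-4 against 846 CPM and 824 CPM in Myelo-3. The summed level of the list was near that of Myelo-3, with a log2 ratio of -0.13 that turned to 0.05 with plain CPM and to 0.14 with DESeq2 size factors. Among 11 primary granule genes above 20 CPM, 0 were called higher and 2, Rgcc and Gusb, lower, a share near the 11.7% of all genes, with a median of -0.20. Gusb missed the rule with plain CPM and Rgcc with DESeq2 size factors. Mpo, myeloperoxidase, stood at 1709 CPM and 1244 CPM in Myelo-4, against 1891 CPM and 1600 CPM in Myelo-3. Lyz2, the most abundant primary granule gene here, stood at 25323 CPM and 25867 CPM in Myelo-4, against 19162 CPM and 17153 CPM in Myelo-3. The sum of the primary granule list, mostly Lyz2, had log2 ratios of 0.25 and 0.41. S100a8, S100a9, Camp and Ngp together took 46.0% and 44.8% of all UMIs in Myelo-4, against 45.5% and 40.0% in Myelo-3. S100a8 and S100a9, the subunits of calprotectin, had opposite signs in the libraries. None of 7 NADPH oxidase genes, which make the respiratory burst enzyme, and none of 24 actin and motility genes was called. With 13.9% of all genes called either way, lists this short would hold few calls.

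Cell cycle genes made up the leading group on the low side. All 27 G2/M genes above 20 CPM were called lower (against 11.7% of all genes), as were 15 of 21 S phase genes, and 0 of either list were higher. Some of them, such as Cenpe with 0 UMIs in Myelo-4, passed the 20 CPM mean through Myelo-3 alone, which all but fixes a call as lower. At 100 CPM or more, 15 of 15 G2/M and 3 of 3 S phase genes were called lower, against 9.35% of all genes. The same limit holds there. The 3 S phase genes (Dut, Rrm2 and Slbp), and Ube2c and Nusap1 among the G2/M genes, passed the 100 CPM mean only through Myelo-3. Hmgb2, H2afz, Tuba1b and Cks2, the most abundant G2/M genes, were above 100 CPM in both clusters and were called lower. The summed G2/M level was 4806 CPM and 4443 CPM in Myelo-4, against 18382 CPM and 14809 CPM in Myelo-3, which is 3.82-fold and 3.33-fold lower. The summed S phase level was 639 CPM and 508 CPM in Myelo-4, against 1964 CPM and 2118 CPM in Myelo-3, which is 3.07-fold and 4.17-fold lower. Single genes are imprecise here, since 20 of the 27 G2/M genes gave 10 or fewer UMIs in Myelo-4 and 2 gave 0 in both libraries. The median log2 ratio of the G2/M list was -3.50, or -2.28 with each 0 set to 3 UMIs, and that of the S phase list -1.88, or -1.81. Of the 15 genes called lower that ranked first by the same measure, 8 belong to these lists. Ube2c gave 7 and 3 UMIs in Myelo-4, levels of 52.0 CPM and 26.3 CPM, against 977 CPM and 670 CPM in Myelo-3. Birc5, survivin, stood at 52.0 CPM and 61.3 CPM in Myelo-4, against 518 CPM and 403 CPM in Myelo-3. Cenpf, a kinetochore protein, gave 0 UMIs in both Myelo-4 sums, which is at least 6.02-fold and 4.18-fold lower than in Myelo-3, taking 3 UMIs per library as the floor. The more abundant Hmgb2 and H2afz, chromatin proteins of dividing cells, averaged 1649 ± 189 CPM and 2036 ± 32.6 CPM in Myelo-4, and 5063 ± 1060 CPM and 4717 ± 402 CPM in Myelo-3 (SD, n = 2 each), and H2afz missed the rule with DESeq2 size factors.

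In single cells thinned to 4000 UMIs, the 2 lists together gave a median of 15 UMIs (female, range 6 to 23) and 13.5 UMIs (male, 8 to 27) in Myelo-4. The medians were 50 UMIs and 47 UMIs in Myelo-3 and 59 UMIs in both libraries of Myelo-2. No Myelo-4 cell reached the Myelo-3 median, but Myelo-3 itself was broad, with cells from 4 UMIs to 101 UMIs. Of the Myelo-3 cells, 24.6% (female) and 29.1% (male) lay at or below the highest Myelo-4 cell. Mki67, a marker of dividing cells, had a UMI in 6.45% and 3.57% of thinned Myelo-4 cells and in 33.8% and 34.6% of thinned Myelo-3 cells. Before thinning these shares were 9.68% and 3.57% in Myelo-4 and 59.9% and 54.6% in Myelo-3. Outside the Myelo clusters, DC and the female HSCP-1 and HSCP-2 cells had medians of 13 to 16 UMIs, so low values were shared with a few other clusters.

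**Figure D3:**
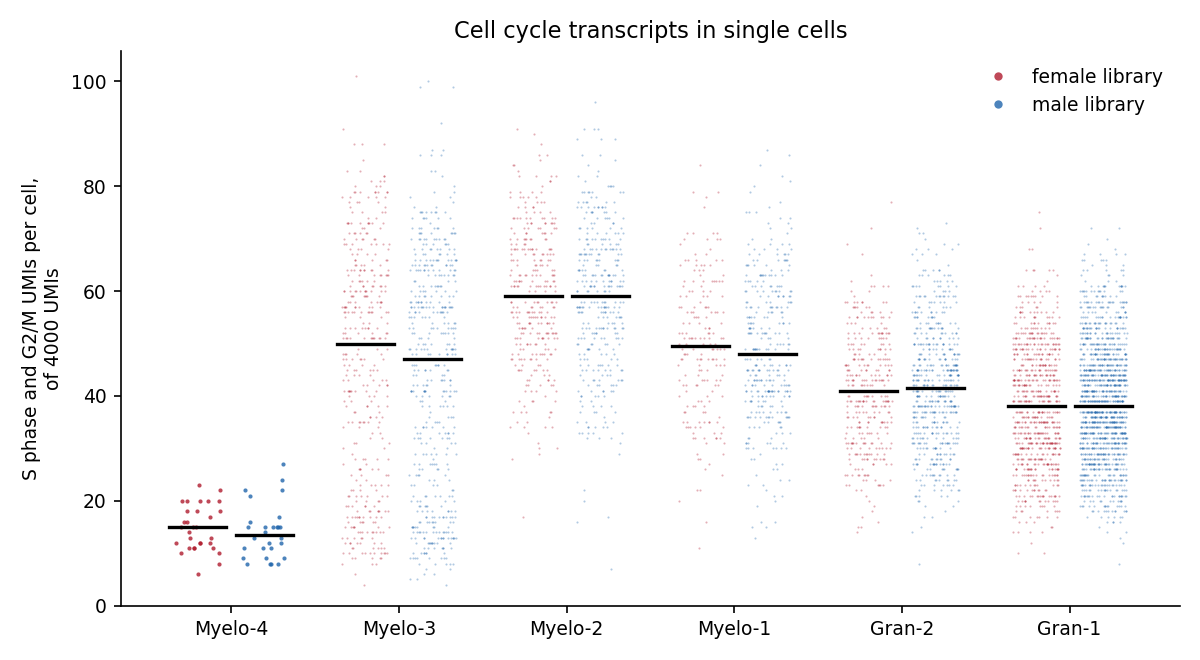
S phase and G2/M UMIs per cell after thinning to 4000 UMIs, in the 4 Myelo and 2 Gran clusters, with 1 dot per cell and bars at the medians (female left, male right in each cluster). Myelo-4 cells lie between 6 and 27 UMIs, while Myelo-3 cells spread from 4 to 101 UMIs and many lie at the Myelo-4 level.

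The Myelo-3 cells with no more cycle UMIs than the highest Myelo-4 cell were set beside Myelo-4. These were 105 female and 154 male cells at or below 23 and 27 UMIs, a set defined here from the data and not by the study. Only 55 of the 105 and 59 of the 154 lay at or below the Myelo-4 medians of 15 and 13.5 UMIs. The sets were thus not matched in cycle level. Mmp8 gave a mean of 5.03 UMIs and 5.04 UMIs of 4000 in Myelo-4, against 0.20 and 0.25 in these Myelo-3 cells and 0.0717 and 0.0747 in the other Myelo-3 cells. Retnlg gave 16.4 UMIs and 16.9 UMIs in Myelo-4, against 1.39 and 0.961 in the low-cycle Myelo-3 cells and 0.548 and 0.467 in the others. Ly6g gave 6.90 UMIs and 6.75 UMIs in Myelo-4, against 3.32 and 3.02 in the low-cycle Myelo-3 cells and 1.52 and 1.28 in the others. In both libraries the means of all 3 transcripts were highest in Myelo-4, lower in the low-cycle Myelo-3 cells and lowest in the others, though within Myelo-3 those of Mmp8 were far below 1 UMI and those of Retnlg near or below it. All 3 are markers that name these cells, so their being highest in Myelo-4 adds no evidence. Of other genes, Mmp9 gave 3.32 and 2.32 UMIs in Myelo-4, 0.543 and 0.636 in the low-cycle Myelo-3 cells, and 0.333 and 0.243 in the others. S100a6, Ltf and Lgals3 had the same order. Camp was lower in Myelo-4, at 216 and 200 UMIs, against 251 and 254 in the low-cycle Myelo-3 cells. Fcnb was lower in Myelo-4 too, at 0.35 UMIs and 0.50 UMIs, against 1.43 and 2.06 in the low-cycle Myelo-3 cells. Median depths were 5844 and 5057 UMIs in Myelo-4 and 6736 and 6225 UMIs in the low-cycle Myelo-3 cells before thinning.

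Genes that brake or start the cycle and genes of the nucleus were also followed. Of 16 brakes and G1 genes above 20 CPM, 0 were called higher and 3 lower, namely Cdkn2c, Cdk2 and Cdk4, a share near the 11.7% of all genes. Cdkn2c, an inhibitor of CDK4 and CDK6, gave 1 and 2 UMIs in Myelo-4, levels of 7.43 CPM and 17.5 CPM, against 127 CPM and 98.4 CPM in Myelo-3. Cdk2 and Cdk4, and Rpl3 below, missed the rule with plain CPM and with DESeq2 size factors. Btg1 and Btg2, antiproliferative genes, were above Myelo-3 in both libraries without meeting the rule. Of 5 nuclear shape genes above 20 CPM, 3 were called lower (against 11.7% of all genes), of which Cbx5 gave 0 UMIs in both Myelo-4 sums. Hmgn2, a nucleosome-binding protein, stood at 1203 CPM and 1034 CPM in Myelo-4, against 4367 CPM and 3369 CPM in Myelo-3, and Lmnb1, lamin B1, at 44.6 CPM and 17.5 CPM in Myelo-4, against 172 CPM and 146 CPM in Myelo-3. Lbr, the lamin B receptor needed for the lobed neutrophil nucleus, missed the rule, at 156 CPM and 105 CPM in Myelo-4 against 311 CPM and 220 CPM in Myelo-3.

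Ribosomal protein transcripts were lowest in Myelo-4 among the 17 clusters. All 28 listed genes were lower than in Myelo-3 in both libraries, with a median log2 ratio of -0.83. Only Rpl3 met the 2-fold rule, against 11.7% of all genes called lower. Their sum was 34579 CPM and 37451 CPM in Myelo-4, against 56420 CPM and 68966 CPM in Myelo-3 and 138344 CPM and 142641 CPM in Gran-1. Without the male cell that stood apart, the log2 ratio of the sum moved to -0.96 from -0.79. Of 10 nucleolar genes above 20 CPM, such as Npm1 and Ncl, and 15 endoplasmic reticulum genes, 0 were called, with medians of -0.84 and -0.35. Of 19 respiratory chain genes, 0 were called higher and 1, Ndufa4, lower. Of all genes, 2.23% were called higher and 11.7% lower, so lists this short would hold few calls. The 8 listed genes encoded in the mitochondrial genome were all below Myelo-3 in the female library, and 7 of them, all but mt-Co1, were above it in the male library. For mt-Nd1, a subunit of complex I, the levels were 713 CPM (female) and 2305 CPM (male) in Myelo-4 and 978 CPM and 1313 CPM in Myelo-3.

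Transcription factors of the neutrophil branch were rarely called. Of 18 above 20 CPM, 0 were called higher and 1, Runx1, lower (against 2.23% and 11.7% of all genes), on 2 and 1 UMIs, and it missed the rule when cells were thinned. Klf2, a transcription factor of the Krüppel-like family, stood at 1345 CPM and 824 CPM in Myelo-4, against 811 CPM and 513 CPM in Myelo-3, log2 ratios of 0.73 and 0.68. Cebpe, which drives secondary granule genes, stood at 728 CPM and 841 CPM in Myelo-4, against 1329 CPM and 1139 CPM in Myelo-3. Cebpb, the C/EBP factor of emergency granulopoiesis, stood at 111 CPM and 175 CPM in Myelo-4, against 322 CPM and 247 CPM in Myelo-3. Mxd1, an antagonist of Myc, stood at 245 CPM and 123 CPM in Myelo-4, against 83.1 CPM and 72.1 CPM in Myelo-3, and was over 2-fold higher in the female library only. Myc gave 0 UMIs in Myelo-4.

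Markers of other cell types were uneven in Myelo-4, with many at 0 UMIs and a few abundant. Of the B cell list 9 of 11 genes gave 0 UMIs (among them Cd79a and Ms4a1), of the T and NK list 8 of 10 (Cd3e and Trbc2), of the macrophage list 7 of 11 (Adgre1), of the dendritic list 7 of 11 (Siglech and H2-Aa), and of the erythroid and megakaryocyte list 7 of 16 (Hba-a1, Klf1). Of the monocyte list 5 of 18 gave 0, with Csf1r, Ccr2 and Fn1 among them, and its sum was 4620 CPM and 4206 CPM in Myelo-4, against 3529 CPM and 2608 CPM in Myelo-3, mostly Ly6c2 and Lgals3. That sum ranked 5th of the 17 clusters, below Mono at 5923 CPM and 6166 CPM. Of the eosinophil, basophil and mast list 5 of 15 gave 0, with Epx and Fcer1a among them. Its summed level was 579 CPM and 403 CPM in Myelo-4, against 557 CPM and 387 CPM in Myelo-3, and Myelo-4 ranked 3rd of the 17 clusters by it. Of 6 members of that list above 20 CPM, 1 was called higher and 2 lower, with a median log2 ratio of -0.79. Of all genes, 2.23% were called higher and 11.7% lower. Hdc, histidine decarboxylase, made up most of the summed level in Myelo-4. It was the 1 called higher, at 342 CPM and 254 CPM in Myelo-4 against 157 CPM and 116 CPM in Myelo-3, though not when cells were thinned or the deepest cells left out. Cd3d, the only T and NK gene called higher, had 4 and 5 UMIs. Above 20 CPM, 2 of 6 progenitor, 1 of 3 dendritic and 1 of 3 erythroid and megakaryocyte genes were called lower and 0 higher. Of 5 monocyte genes, 1, Lgals3, was called higher and 0 lower. The progenitor list summed to 186 CPM and 342 CPM in Myelo-4, against 259 CPM and 602 CPM in Myelo-3. Other lists summed to 14.9 CPM to 210 CPM in Myelo-4 and 73.2 CPM to 398 CPM in Myelo-3. Their part in the other results was not tested.

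Myelo-4 cells were not alike in their late transcripts. Retnlg ran from 0 to 98 UMIs of 4000 in female cells (median 8) and from 0 to 106 in male cells (median 7.5). The 5 cells richest in Retnlg held 62.3% (female) and 58.8% (male) of its thinned UMIs. At least 10 UMIs were found in 14 of 31 female and 14 of 28 male Myelo-4 cells, against 1 of 426 and 4 of 529 Myelo-3 cells. No more than 1 UMI was found in 11 female and 7 male Myelo-4 cells. Across cells, Retnlg and Mmp8 went together, with a Spearman's rho of 0.63 in 31 female and 0.68 in 28 male cells, and Retnlg and Mmp9 had 0.60 and 0.38. Retnlg and the cycle UMIs had a rho of -0.08 in each library. These values describe cells of 1 library each, which share its preparation, and carry no p.

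**Figure D4:**
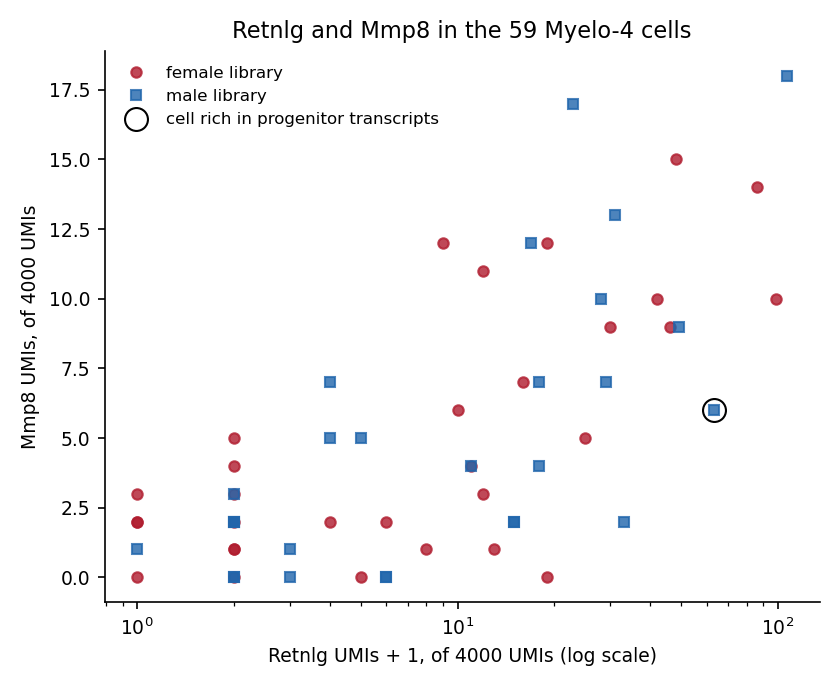
Retnlg UMIs + 1 (log scale) and Mmp8 UMIs in each of the 59 Myelo-4 cells, after thinning to 4000 UMIs (circles female, squares male). Cells with more Retnlg UMIs tend to hold more Mmp8 UMIs, and the highest values in any cell are 106 and 18. At most 1 Retnlg UMI is held by 11 female and 7 male cells. The ringed male cell is the one that stood apart, with 143 Retnlg but 6 Mmp8 UMIs before thinning.

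Surface protein was read from the antibody counts. No source used here says whether these counts entered the authors' clustering. Tags of both sexes were sequenced as 1 library, and each cell is placed here with its mRNA library. Ly-6G had a median of 14166 counts in female Myelo-4 cells (lowest 2208, highest 39458) and of 8183 counts in male ones (1072 to 23294). In Myelo-3 the medians were 3767 counts (32 to 51897) and 2196 counts (59 to 4399311). The ratio of medians was 3.76 and 3.73, a log2 ratio of 1.90 ± 0.01 (SD, n = 2), with an exact two-sided permutation p of 0.333 over the library medians, which is the smallest that 2 against 2 allows. In Myelo-4, 30 of 31 female and 25 of 28 male cells exceeded the Myelo-3 median, and Myelo-4 ranked first of the 17 clusters in both libraries. Per cell, Ly-6G took a median of 61.2% and 61.3% of the 4 antibody counts in Myelo-4, against 20.8% and 20.1% in Myelo-3. Without the cells whose barcode occurred in both libraries, the log2 ratio was 1.94, and by mean counts, which include the Myelo-3 cell of 4399311 counts, it was 0.63.

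CD117, the receptor encoded by Kit, was low in Myelo-4, although the marrow had been enriched with CD117 beads. Its median was 40 counts (female, 11 to 139) and 31.5 counts (male, 13 to 262) in Myelo-4, against 95 counts and 73 counts in Myelo-3. In 30 of 31 female and 23 of 28 male cells it lay below the Myelo-3 median, and in the female library no cluster had a lower median. The exact permutation p was again 0.333. Kit itself gave 1 and 0 UMIs in Myelo-4, against 60 and 105 in the many more Myelo-3 cells. The low-cycle Myelo-3 cells had medians of 62 and 50 counts, between Myelo-4 and the other Myelo-3 cells at 112 and 80.

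CD11b and Ly-6C protein had lower medians in Myelo-4, while their transcripts were not called either way. CD11b had medians of 3827 counts (1365 to 12407) and 2396 counts (588 to 21448) in Myelo-4, against 5801 counts and 3185 counts in Myelo-3, a log2 ratio of -0.51 ± 0.13 (SD, n = 2, exact permutation p = 0.667). Itgam, its gene, stood at 282 CPM and 202 CPM in Myelo-4, against 189 CPM and 156 CPM in Myelo-3. Ly-6C had medians of 4641 counts (1797 to 10252) and 2280 counts (1353 to 10333) in Myelo-4, against 7200 counts and 4419 counts in Myelo-3, a log2 ratio of -0.79 ± 0.23 (SD, n = 2, exact permutation p = 0.667). Ly6c2, which encodes the antigen together with Ly6c1, stood at 2362 CPM and 2182 CPM in Myelo-4, against 2468 CPM and 1775 CPM in Myelo-3, with opposite signs in the libraries, and Ly6c1 gave 1 and 0 UMIs in Myelo-4. Within each library both proteins had the lower median in Myelo-4, at log2 ratios of -0.60 and -0.41 (CD11b) and -0.63 and -0.95 (Ly-6C). The permutation test did not pair the clusters within a library, and female Myelo-4 medians of both exceeded the male Myelo-3 ones. Cell ranges of both proteins overlapped widely within each library, and 9 female and 8 male Myelo-4 cells exceeded the Myelo-3 median of CD11b. The scale of these counts is not set by the transcripts, so only the direction is compared.

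**Figure D5:**
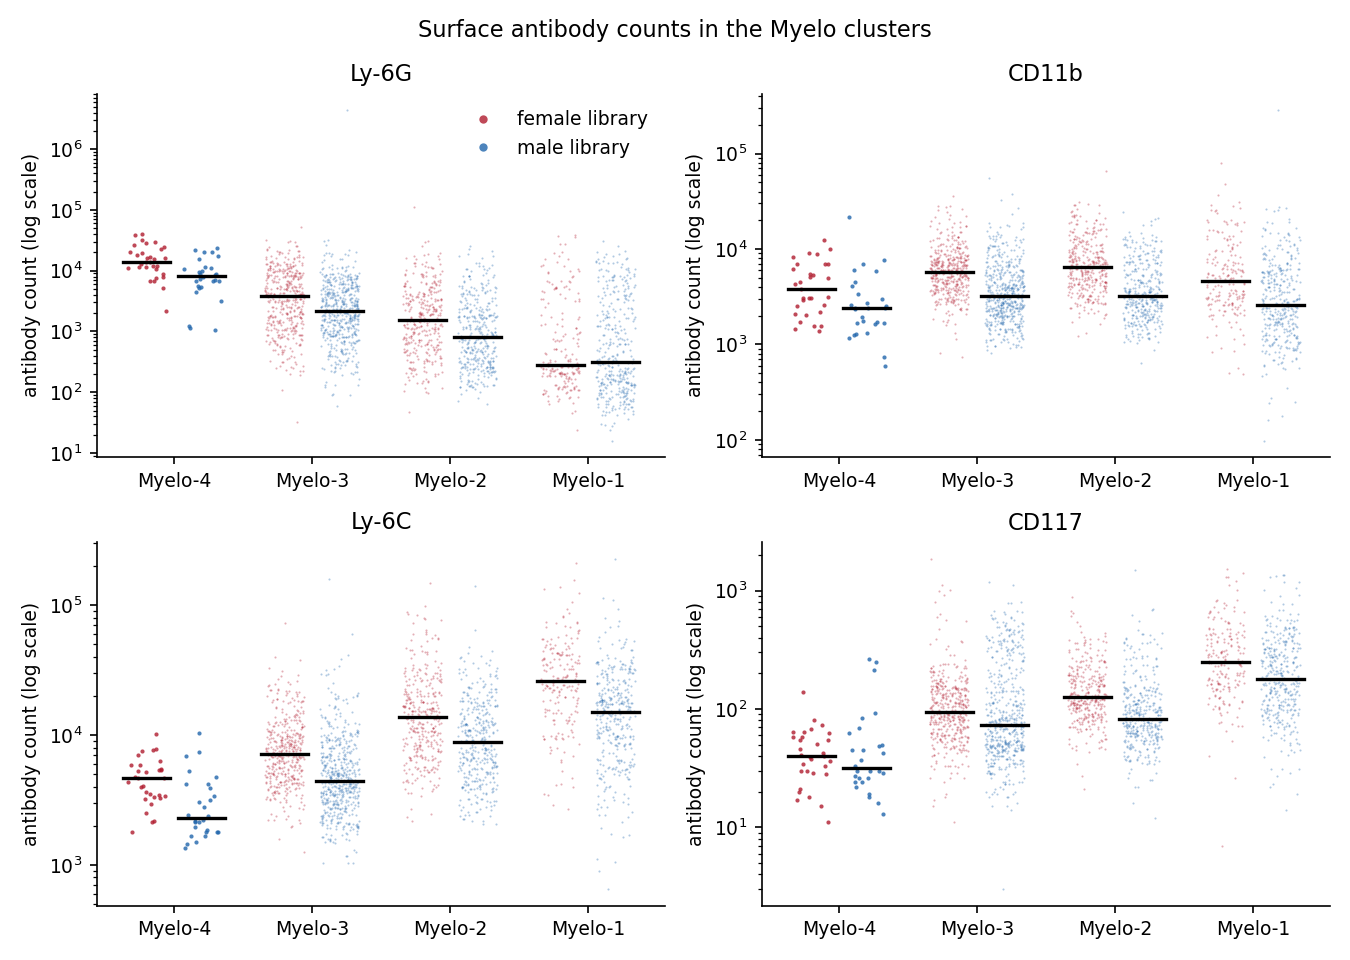
Antibody counts (log scale) of Ly-6G, CD11b, Ly-6C and CD117 in single cells of Myelo-4, Myelo-3, Myelo-2 and Myelo-1, with bars at the medians (female left, male right in each cluster). Ly-6G is highest in Myelo-4, at medians of 14166 and 8183 against 3767 and 2196 in Myelo-3, and the other 3 antibodies have lower medians in Myelo-4 than in Myelo-3.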

How the data were processed

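Per the labels, the male library was sequenced to 689 M reads and the female one to 676 M, each after loading 10000 cells for 10x Genomics 3' v2 chemistry. The authors deposited raw UMI counts (28692 gene IDs by 11132 cells), cluster names and whole-number antibody counts. Cell Ranger 2.1.0 and mm10 are named, per the submitters' processing notes. How cells were filtered or clustered and whether doublets or duplicate antibody reads were removed is not stated in those notes or the labels. The deposited rescaled antibody values were not used.

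Cells were assigned to a library by their name's ending, passed no further filter and went through no doublet caller. Counts were summed per cluster and library, because cells are not replicates, and scaled with TMM factors (edgeR 4.0.16, R 4.3.3) over all 34 sums. Whether the libraries came from several mice is not stated, so their spread may be technical. Log2 ratios were taken within a library on CPM + 1. Cells were thinned to 4000 UMIs by random draws without replacement. Antibody medians were compared by an exact two-sided permutation test that did not pair the clusters within a library. Size factors came from DESeq2 1.42.0. Other steps used Python 3.11.15 with scipy 1.17.1, pandas 2.3.3, numpy 2.4.6 and matplotlib 3.10.9.

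The members, the gene lists (482 genes, of which 4 were not found in the table) and the tests were chosen with earlier results of these data known. The rule for named genes took the marker and antigen genes, up to 5 members of each list by level and up to 3 called each way, and the 15 largest ratios each way at 100 CPM or more. Adam8, C5ar1, Fcgr4, Pirb, Cxcr1, Cxcr2, Il1b, Alpl, Cebpb, Mxd1, Myc, mt-Nd1 and the markers named at 0 UMIs fall outside it and were chosen after their values were seen. Symbols were found for 28339 IDs. Gene spans and promoters are from RefSeq (GRCm38.p6, the build of mm10), matched by symbol.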

Additional observations from a re-analysis of the deposited data

How the results depend on the processing

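Against 90 genes at least 2-fold higher in Myelo-4 and 473 lower, dropping the level filter gave 222 and 2745, a minimum of 100 CPM gave 24 and 105, and mean levels with no replicate block gave 161 and 762. With 1 library left out, the higher genes numbered 238 to 267. The lower genes then numbered 819 to 894. Lower genes numbered 237 with plain CPM and 209 with DESeq2 size factors, and higher genes 142 with Myelo-2 in place of Myelo-3. The ratio within a library pairs clusters of the same library. Without that pairing no named call was lost, but none could be. A gene at least 2-fold apart in the same direction in both libraries is so by mean levels too. For summed lists (log2 ratio), plain CPM gave -1.66 for G2/M, 0.70 for mature receptors, 0.046 for secondary granule, 0.50 for primary granule and -0.62 for ribosomal protein genes. DESeq2 size factors gave -1.57, 0.79, 0.14, 0.60 and -0.53 in the same order, and the mean over cells gave -1.57 for G2/M and -0.53 for ribosomal protein genes. Thinning gave 0.33 for mature receptors, -0.29 for secondary and 0.14 for primary granule genes. Without its most abundant member, the log2 ratio was -2.19 for G2/M, 1.58 for gelatinase granule, 0.71 for mature receptors, 0.079 for secondary and -0.20 for primary granule genes. The ribosomal value was -0.96 without the male cell that stood apart, an alternative chosen after seeing the data, as was leaving out cells with a barcode in both libraries. The causes were not tested. Of 68 named genes called, 9 missed the rule with plain CPM, 12 with DESeq2 size factors, 8 when thinned, 10 without the fifth of cells with the most UMIs and 5 with a pseudocount of 5 CPM, and 0 changed direction. The 4 antibody contrasts kept their direction under each alternative run. Genes with few UMIs in 59 shallow cells are the least precise.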

Other observations

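Genes of some RNA-binding families and of the tubulins were counted by the start of their symbols. These families were picked after the values were seen, so the counts are a description, with no test. Of 52 Lsm, Snrp, Hnrnp and Srsf genes with a mean level of at least 20 CPM, 24 were at least 2-fold lower in Myelo-4 than in Myelo-3 in both libraries and 0 were higher, with a median log2 ratio of -1.14. Over all genes at that level, 11.7% were lower. Of the 28 of these genes with at least 100 CPM, 19 were lower and 0 higher, with a median of -1.32, against 9.35% of all genes lower. Lsm and Snrp genes, which build the small nuclear ribonucleoproteins of the spliceosome, gave 11 of 22 at 20 CPM and 10 of 14 at 100 CPM. Hnrnp genes, which bind nascent transcripts, gave 7 of 20 and 6 of 9. Among tubulin genes (Tuba and Tubb), 5 of 7 and 5 of 5 were lower, with a median log2 ratio of -1.91 at either level.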
